A study of Mus musculus with 9 samples.

Results

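The replication-dependent histone genes encode the linker histone H1 and the core histones H2A, H2B, H3 and H4 that package newly made DNA. All protein-coding genes whose GENCODE mouse release 21 symbol starts with Hist1h, Hist2h, Hist3h or Hist4 were taken. There were 67 of them among 52550 gene identifiers, of which 21819 were protein-coding. They comprised 6 H1, 18 H2A, 18 H2B, 12 H3 and 13 H4 genes. The Hist1 cluster on chromosome 13 held 54, the Hist2 cluster on chromosome 3 held 10, chromosome 11 held 2 Hist3 genes and chromosome 6 held 1 Hist4 gene. The rule uses symbols and no measured value, but it was proposed with earlier results of these data known.

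RNA of mouse liver at 320 days was sequenced in 9 libraries, 3 per genotype. The groups were p53+/- mice, which lack 1 copy of the tumour suppressor gene Trp53 in every cell; Tsc1fl/fl;Alb-Cre mice (Tsc1-deleted), in which Cre under the albumin promoter, active in hepatocytes, removes Tsc1, a brake on the growth kinase mTORC1; and p53+/-;Tsc1fl/fl;Alb-Cre mice (double mutant), which carry both. No group with intact Trp53 and Tsc1 was analysed here. Whether each library is its own mouse is not stated in the labels, and the p-values cover only the spread from library to library, which may be technical.

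Replication-dependent histone genes are transcribed mainly in S phase, when DNA is copied, and lie in clusters in which H2A and H2B genes often share a promoter between them. Their messages usually end in a short stem-loop rather than a poly(A) tail, and the stem-loop binding protein Slbp carries them through processing and translation. Some of them also make polyadenylated messages that read past the stem-loop, chiefly in cells that have stopped dividing. The molecule label reads polyA RNA but the protocol removes ribosomal RNA, so it is not settled how well tail-less messages were captured.

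The stem-loop is shown for genes of each class that the results turn on, because it is the element that sets these messages apart. Each line gives 26 bases of the GENCODE transcript, 5′ to 3′, with the stem-loop match in capitals.
Hist1h1c: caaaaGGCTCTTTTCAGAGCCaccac
Hist2h2aa1: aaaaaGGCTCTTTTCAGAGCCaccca
Hist1h2bg: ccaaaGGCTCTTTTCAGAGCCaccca
Hist1h2bk: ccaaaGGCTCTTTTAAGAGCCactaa
Hist2h3c1: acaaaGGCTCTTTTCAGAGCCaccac
Hist1h4h: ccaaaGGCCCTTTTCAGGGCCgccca
Hist1h4i: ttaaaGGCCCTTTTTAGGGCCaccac
Both H4 genes carry another stem than the H1, H2A, H2B and H3 genes shown. The search took 16-base runs on the transcript strand in which 6 bases and their reverse complement enclose a loop of 4, the left arm opens with a pair of Gs and the loop opens with T, a definition made with these transcripts in view. Such a run was found in 46 of the 67 members (68.7%) and in 415 of 21834 other coding genes (1.90%). The form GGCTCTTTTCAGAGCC stood in 26 members, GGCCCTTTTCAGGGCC in 7 and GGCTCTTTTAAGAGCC in 6. No match says only that such a run is not in the annotated model.

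The targeted genes check the labels only in part. Tsc1 stood at 0.15, 0.25 and 0.99 FPKM in p53+/-, 0.77 to 0.95 FPKM in Tsc1-deleted and 1.04 to 1.14 FPKM in double-mutant libraries as deposited, and after the nuclear rescaling described here at 1.32 to 2.81, 0.76 to 0.96 and 1.02 to 1.13 FPKM. The libraries with Tsc1 deletion were thus all below the p53+/- libraries on the rescaled values alone, and a whole-gene value also counts exons that Cre leaves and cells without Cre. Trp53 stood at 0.53, 0.5 and 15.4 FPKM in p53+/-, 7.07 to 16.4 FPKM in Tsc1-deleted and 5.88 to 9.68 FPKM in double-mutant libraries. After rescaling p53+/- library 3 had the highest Trp53 level of the 9, at 20.6 FPKM, so Trp53 levels do not separate the libraries labelled p53+/- from those with Tsc1 deletion alone. Some libraries stood apart. By FPKM times gene length, nuclear protein-coding genes made up 7.4% and 6.6% of the signal in p53+/- libraries 1 and 2, against 61.8% to 87.3% in the other 7, and mitochondrial genes made up 68.0% and 55.9% against 8.0% to 25.5%. In p53+/- library 3 the summed level of 17 hepatocyte markers was 720 FPKM, against 4338 to 45460 FPKM in the other 8 (FPKM, reads scaled to gene length and library size). That library had the highest sums of the macrophage, stellate and proliferation lists, with 2634 FPKM for 15 macrophage markers against 38.9 to 802 FPKM elsewhere and 1571 FPKM for 14 stellate cell and fibroblast markers against 14.2 to 291 FPKM. Every contrast with the p53+/- group rests on these 3 libraries, so values are also given after nuclear rescaling, in which each library was scaled until its nuclear protein-coding genes, histone members left out, had equal sums. In bulk liver, fewer cells of a type and less RNA per cell cannot be told apart. The depth read from the step of 1 read was 10600000 to 18200000 reads per library. The 67 genes together drew about 172 and 120 reads in p53+/- libraries 1 and 2 and 2971 to 8817 in the others.

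Histone messages were a small part of the liver transcriptome, and a handful of genes carried most of them. The 67 genes made up 0.0174% to 0.062% of the nuclear coding signal. Hist1h2bc (ENSMUSG00000018102), Hist1h1c (ENSMUSG00000036181), Hist1h2bg, Hist1h4h, Hist2h2aa1 and Hist1h2bk had the highest mean log2(FPKM + 1) and held 72.4% to 90% of the summed histone FPKM in each library. Hist1h2bc alone, an H2B gene, held 38.4% to 56.9%. At the other end, 37 members stayed below 1 FPKM in all 9 libraries, and 32 drew under 10 estimated reads in each of them. The median over the 9 libraries reached 10 FPKM for 3 members, Hist1h2bc, Hist1h1c and Hist1h2bg.

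Summed over all 67 genes, the level was 10.7, 11.01 and 199 FPKM in the p53+/- libraries, 222, 339 and 477 FPKM in the Tsc1-deleted libraries, and 264, 214 and 374 FPKM in the double mutants. After nuclear rescaling the sums were 110.1, 122 and 265 FPKM, 221, 356 and 456 FPKM, and 254, 212 and 374 FPKM in the same order. The Tsc1-deleted and double-mutant libraries overlapped on both scales. P53+/- library 3 lay above 1 Tsc1-deleted and 2 double-mutant libraries after rescaling, and libraries 1 and 2 of that group lay below all others.

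**Figure D1:**
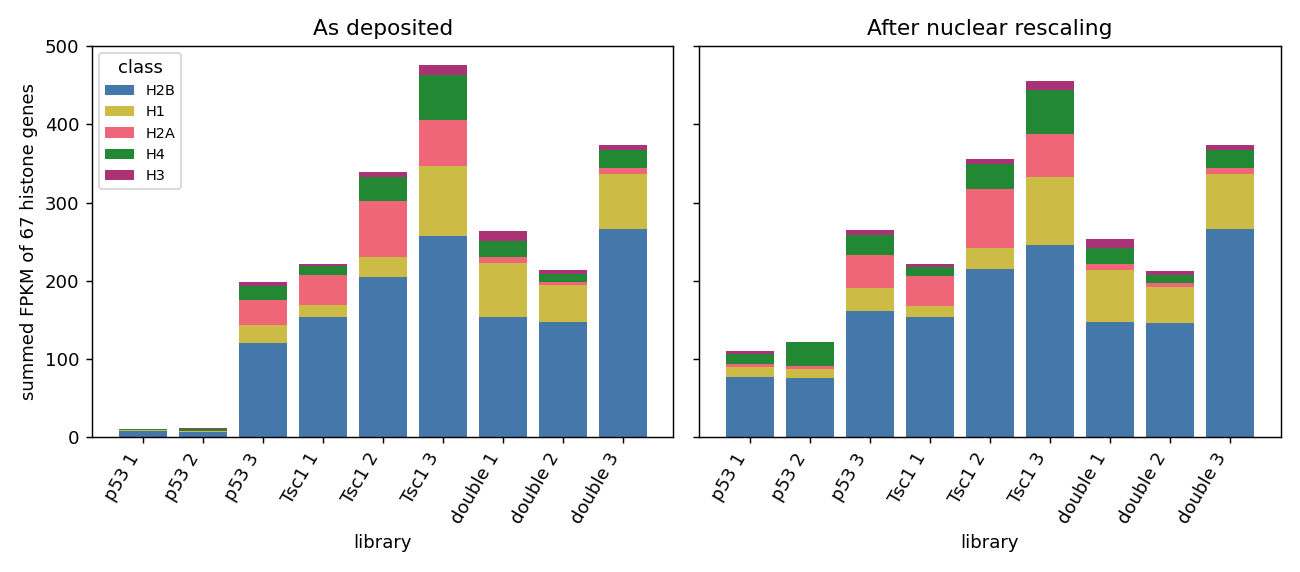
Summed FPKM of the 67 histone genes in each of the 9 libraries, stacked by histone class, as deposited (left) and after nuclear rescaling (right); p53 is p53+/-, Tsc1 is Tsc1fl/fl;Alb-Cre, double carries both. H2B makes up most of each bar, the first 2 p53+/- bars rise from 10.7 and 11.01 to 110.1 and 122 FPKM after rescaling, and the H2A band is thin in the double mutants.

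H2B genes supplied 54.0% to 71.0% of the summed histone FPKM in every library. H1 genes made up 18.9% to 26.4% in the double mutants and 6.8%, 7.2% and 18.9% in the Tsc1-deleted libraries. H2A genes made up 2.0% to 2.9% in the double mutants against 12.2% to 21.3% in the Tsc1-deleted libraries. Without Hist2h2aa1 the H2A signal in RPM (FPKM times model length in kilobases) was 8.44, 6.75 and 22.4 in the Tsc1-deleted and 14.4, 6.70 and 15.8 in the double-mutant libraries, so those groups then overlapped. H3 genes never passed 5.0%, and H4 genes lay between 4.9% and 25.2%.

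Among the H2B genes, which pair with H2A in the nucleosome, Hist1h2bc led. It stood at 5.96, 5.18 and 94.5 FPKM in the p53+/- libraries, 112, 164 and 183 FPKM in the Tsc1-deleted libraries, and 122, 115 and 213 FPKM in the double mutants. Its annotated model has 2 exons and 1156 bases and holds no stem-loop match, unlike its nearest relative. Hist1h2bg, which shares 45.0% of its 50-base words with Hist1h2bc, stood at 0.81, 0.95 and 9.90 FPKM, 17.2, 23.2 and 28.6 FPKM, and 13.4, 19.4 and 32.4 FPKM in the same order. Both were lowest in p53+/- libraries 1 and 2 and highest in double-mutant library 3. A 50-base word is the length of 1 read, so a shared word marks where a read could not be placed on 1 gene.

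Hist1h2bk and Hist1h2bl, also H2B genes, were lower and followed another order. Hist1h2bk stood at 0.07, 0.11 and 3.25 FPKM in p53+/-, 8.95, 5.64 and 16.3 FPKM in Tsc1-deleted and 4.62, 3.38 and 5.47 FPKM in double-mutant libraries. Hist1h2bl stood at 0.03, 0.02 and 1.24 FPKM, 4.43, 3.25 and 8.16 FPKM, and 2.60, 2.12 and 2.74 FPKM. For both genes the 3 Tsc1-deleted libraries were the 3 highest of the 9. Hist1h2bn, Hist1h2bq and Hist1h2br had their highest value in Tsc1-deleted library 3 too, at 3.14, 5.0 and 4.07 FPKM. Hist1h2bq shares 97.3% of its words with Hist1h2br, so those are not separate observations.

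Hist1h1c, which encodes the linker histone H1.2, was the only H1 gene past the filter of 1 FPKM in at least 3 libraries. It stood at 1.18, 0.85 and 21.9 FPKM in p53+/-, 14.5, 24.3 and 87.0 FPKM in Tsc1-deleted and 68.9, 45.6 and 69.8 FPKM in double-mutant libraries. The double mutants lay close together, and Tsc1-deleted library 3 lay above them while the other 2 of its group lay below. Only 8.5% of its words occur in any other gene. Hist1h1a, Hist1h1d and Hist1h1e reached at most 0.53, 0.90 and 1.22 FPKM, each in Tsc1-deleted library 3. Hist1h1t, the H1 of the testis, reached at most 0.20 FPKM.

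The H2A genes were led by Hist2h2aa1 and Hist3h2a. Hist3h2a stood at 0.19, 0.29 and 9.52 FPKM in p53+/-, 3.15, 2.48 and 8.45 FPKM in Tsc1-deleted and 5.87, 2.55 and 6.63 FPKM in double-mutant libraries, so its groups overlapped. Its model overlaps Trim17 on the same strand over 708 bases. Hist1h2ae and Hist1h2ac were highest at 2.48 FPKM in p53+/- library 3 and 0.89 FPKM in Tsc1-deleted library 3. Hist1h2aa, known from the testis, was listed at 0 in all 9 libraries, and its partner Hist1h2ba reached at most 0.33 FPKM.

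Hist2h2aa1 gave the sharpest pattern between groups in the set. P53+/- libraries 1 and 2 were listed at 0 and library 3 at 15.6 FPKM, with 33.4, 67.7 and 44.5 FPKM in the Tsc1-deleted libraries and 0 in all 3 double mutants. Its copy Hist2h2aa2 was listed at 0 in all 9 libraries, although all of its words occur in Hist2h2aa1. All words of Hist2h2aa1 also occur in Gm20633, an antisense model over it, 89.4% in Gm20634, an overlapping model on the same strand, and 96.3% in Gm20632, the antisense model over Hist2h2aa2. How the authors' pipeline divided reads among these models, and its part in the listed zeros, was not tested.

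Gm20632 was not at 0 in the double mutants. It stood at 1.03, 1.34 and 4.24 FPKM in p53+/-, 8.54, 17.4 and 12.2 FPKM in Tsc1-deleted and 7.4, 5.04 and 5.35 FPKM in double-mutant libraries, and 21.7% of its own words are those of Hist2h2aa1. Gm20634 was listed at 0 in the same 5 libraries as Hist2h2aa1 and at 1.17 to 3.91 FPKM in the other 4. Gm47311, a microRNA model of 138 bases inside Hist2h2aa2, stood at 11.4 and 15.4 FPKM in p53+/- libraries 1 and 2 and at 0.15 to 0.22 FPKM elsewhere. Summed over Hist2h2aa1, Hist2h2aa2 and the 5 models that share their words, the signal was 4.08, 5.49 and 24.1 RPM in p53+/-, 43.9, 86.3 and 67.6 in Tsc1-deleted and 18.1, 12.3 and 13.0 in double-mutant libraries. After nuclear rescaling it was 41.99, 60.9 and 32.1 RPM in p53+/-, 43.8, 90.6 and 64.7 RPM in Tsc1-deleted and 17.4, 12.2 and 13.0 RPM in double-mutant libraries. The double mutants stayed below every Tsc1-deleted library on both scales, but not at 0. P53+/- libraries 1 and 2 were the lowest of the 9 as deposited, while after rescaling all 3 p53+/- libraries lay above every double mutant and overlapped the Tsc1-deleted libraries. In p53+/- libraries 1 and 2 the sum rested on 57.4 and 58.2 estimated reads. Gm20632 held 35.2 and 34.6 of them, Gm47311 held 22.2 and 22.6, and Hist2h2aa1 none. In the double mutants Gm20632 held 257.1, 201.5 and 236.4 of 258.9, 202.8 and 236.8 reads. Most words of Gm20632 are not those of Hist2h2aa1, so the sum does not measure Hist2h2aa1 itself. The sum was formed after the single values were seen and was not tested.

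**Figure D2:**
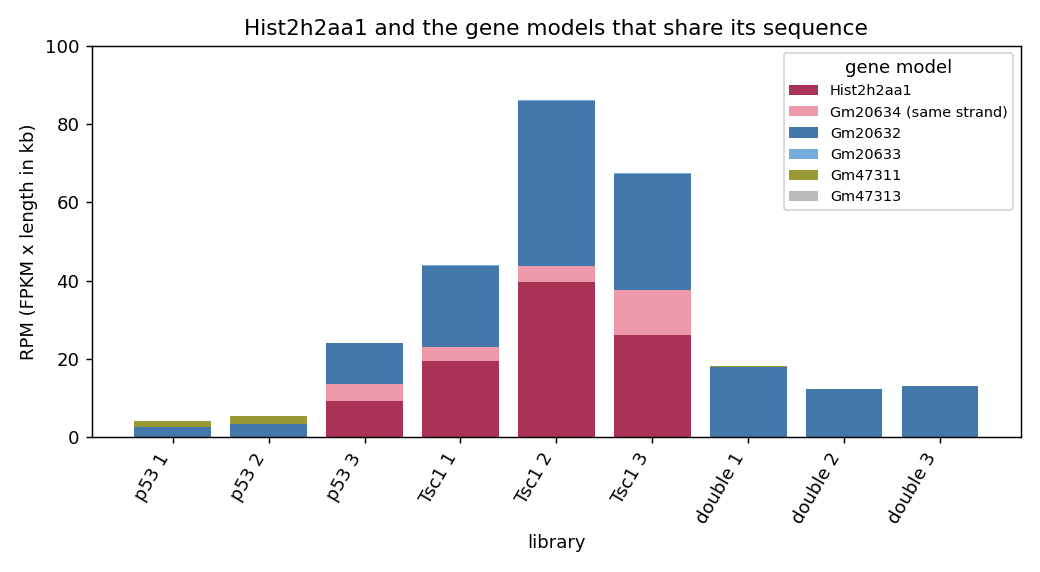
Signal as deposited in RPM (FPKM times model length in kilobases) for Hist2h2aa1 and the models that share its words, stacked per library; Hist2h2aa2, listed at 0 in all libraries, is not drawn. Hist2h2aa1 and Gm20634 appear in 4 libraries and Gm20632 in all 9, and the 3 double mutants total 12.3 to 18.1 RPM.

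Among the H4 genes Hist1h4h and Hist1h4i were highest. Hist1h4h stood at 0.22, 0.89 and 2.76 FPKM in p53+/-, 4.78, 20.9 and 38.7 FPKM in Tsc1-deleted and 11.9, 4.04 and 11.5 FPKM in double-mutant libraries. Its Tsc1-deleted libraries spanned a range wider than that of any other group. Hist1h4i went another way, with 0.45, 0.51 and 8.71 FPKM, 2.11, 3.89 and 5.53 FPKM, and 3.61, 2.92 and 4.52 FPKM, its highest value falling in p53+/- library 3. After nuclear rescaling its p53+/- libraries stood at 4.67, 5.7 and 11.6 FPKM, above all double mutants at 2.9 to 4.52 FPKM. Its log2 difference between double mutant and p53+/- turned from 0.74 (SE 0.71) to -0.77 (SE 0.40), called on neither scale. Hist1h4n and Hist1h4m reached at most 2.70 and 1.55 FPKM, both in Tsc1-deleted library 3.

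The H3 genes summed to 0.0698 to 13.1 FPKM, below H2A in every p53+/- and Tsc1-deleted library but above it in double-mutant libraries 1 and 2, and their leading members lie in the Hist2 cluster. Hist2h3c1 stood at 0.32, 0.05 and 1.30 FPKM in p53+/-, 0.95, 3.01 and 3.17 FPKM in Tsc1-deleted and 8.26, 3.14 and 5.0 FPKM in double-mutant libraries. It lies wholly inside Gm20634, yet Gm20634 was listed at 0 where Hist2h3c1 was highest. Summed over Hist2h3c1, Gm20634 and Hist2h2aa1, which Gm20634 also overlaps, p53+/- and double-mutant libraries overlapped on both scales. After nuclear rescaling the sum was 5.95, 0.95 and 21.4 RPM in p53+/- and 14.5, 5.69 and 9.13 RPM in double-mutant libraries. How reads were divided among these models was not tested. Hist2h3c2 shares 63.5% of its words with Hist2h3c1 and stood at 4.20 FPKM in the same double-mutant library 1. Hist1h3i and Hist1h3d reached at most 1.97 and 0.71 FPKM.

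**Figure D3:**
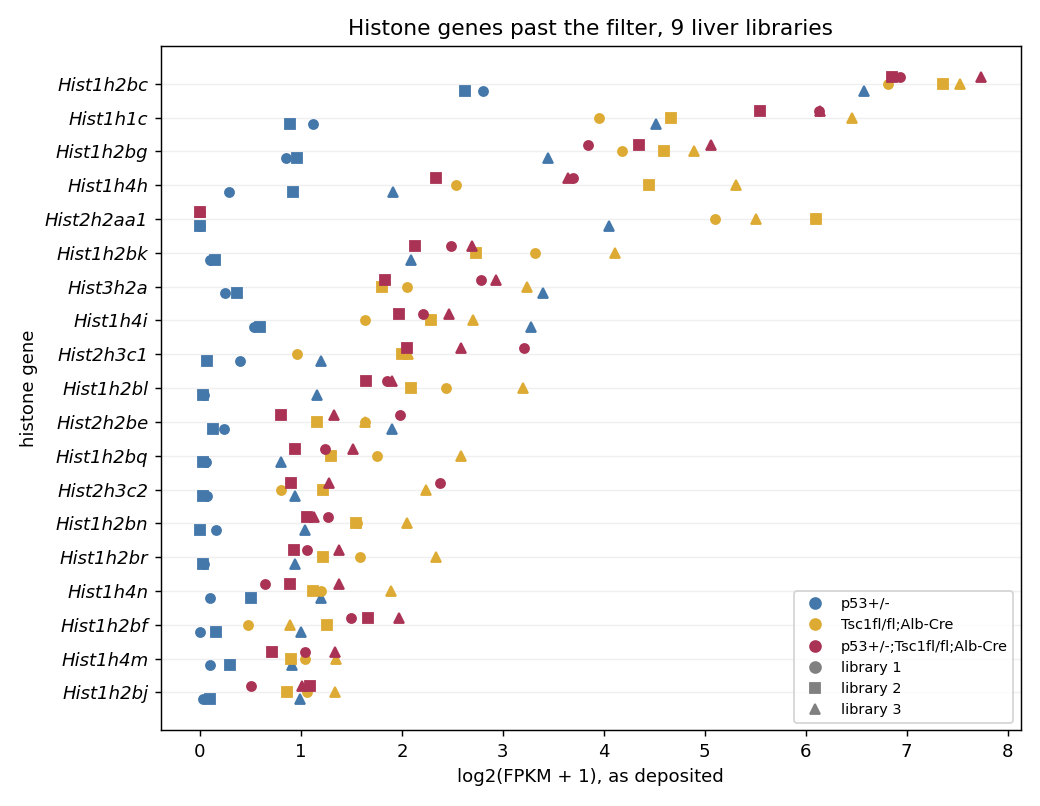
log2(FPKM + 1) of the 19 histone genes that passed the filter of 1 FPKM, 1 point per library, coloured by genotype and shaped by library number. P53+/- libraries 1 and 2 sit at the left for every gene except Hist2h2aa1, where they share 0 with the 3 double mutants.

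Of the 67 members 19 passed the filter and were tested, 1 H1, 2 H2A, 10 H2B, 2 H3 and 4 H4 genes. A gene can pass through 1 group alone, so the counts below describe those 19 and are read against all genes tested. Changes are on the log2(FPKM + 1) scale, which understates the change of low genes, and called means an adjusted p under 0.05 from limma with Benjamini-Hochberg adjustment over all genes tested.

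The double mutant against Tsc1 deletion asks what loss of 1 Trp53 copy adds. Of the 19 histone genes, 1 was called, Hist2h2aa1, lower in the double mutant with a limma adjusted p of 0.029, where 0.025% of the 12014 genes tested were called in either direction and 0.00832% were called lower. No fold is given because the double mutants were all listed at 0. With nuclear rescaling limma called 0 of 21 (0.0159% of all genes), the adjusted p of Hist2h2aa1 was 0.79, and 1 member had an unadjusted p under 0.05 (4.11% of all genes). The call was also lost when any 1 double-mutant library or Tsc1-deleted library 2 or 3 was left out, with adjusted p between 0.123 and 0.687.

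Without overlap between the groups, Hist1h2bk, Hist1h2bl, Hist1h2bn and Hist2h2aa1 were lower in the double mutant (background 3.18% of genes) and Hist1h2bf higher (background 11.4%). Hist1h2bl and Hist1h2bn share 218 and 224 of their 332 words each with Hist1h2bk, so these are not separate observations. The log2 difference was -0.95 (SE 0.68) for Hist1h2bk, -0.78 (SE 0.53) for Hist1h2bl and 0.84 (SE 0.40) for Hist1h2bf, with limma adjusted p of 1.00 for each. The same 4 and 1 genes kept apart after nuclear rescaling, where the background was 3.42% for lower and 12.9% for higher. The median log2 difference was -0.14 over the 19 and 0.29 over all genes. Hist1h1c gave 0.91 (SE 1.02) and Hist1h2bc -0.06 (SE 1.04), and the groups overlapped for both. The SEs of this comparison are pooled over all libraries of the fit, so the spread among p53+/- libraries enters them. That group is not part of the comparison. With only the 6 libraries compared, 5 of 19 members had an unadjusted limma p under 0.05, beside 1349 of 11590 genes. In the main fit 1 of 19 did, beside 256 of 12014 genes. In both fits Hist2h2aa1 was the 1 called member.

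Tsc1 deletion against p53+/- compares the single mutants. Of 19 histone genes 9 were called, all higher with Tsc1 deletion, where 12.2% of all genes tested were called in either direction and 12.1% higher. They were 7 H2B genes, namely Hist1h2bc at 3.23 (SE 1.04), Hist1h2bg at 2.80 (SE 0.85), Hist1h2bk at 2.61 (SE 0.68), Hist1h2bl at 2.16 (SE 0.53), Hist1h2bq at 1.58 (SE 0.45), Hist1h2br at 1.38 (SE 0.43) and Hist1h2bn at 1.31 (SE 0.41), with Hist1h4h at 3.06 (SE 0.82) and Hist2h2aa1 at 4.22 (SE 0.88). Limma adjusted p ran from 0.0104 for Hist2h2aa1 to 0.0499 for Hist1h2bc. The 7 H2B genes share words with one another, so their calls are not wholly separate observations. Of the 19 tested members, 9 had all 3 Tsc1-deleted libraries above all 3 p53+/- libraries, against 27.4% of all genes.

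The median log2 difference was 1.31 over the histone genes and 1.07 over all genes tested. With nuclear rescaling limma called 0 of 21 histone genes (1.11% of all genes), and 8 had an unadjusted p under 0.05 (18.2% of all genes). The medians were then 0.72 and -0.13, and the fitted difference of 5 of the 19 members, Hist1h4i, Hist1h4m, Hist1h4n, Hist2h2be and Hist3h2a, turned from positive to negative, none of them called. Hist1h2bl came nearest with an adjusted p of 0.0531, and 7 of 21 histone genes still lay apart and higher against 8.36% of all genes. The count of called members moved to 19 without p53+/- library 3, where 10700 of all 11618 genes tested were called. It moved to 1 and 2 without p53+/- libraries 1 and 2 in turn, where 586 of 12000 and 609 of 11991 genes were called. Without any 1 Tsc1-deleted library it was 0, beside 1 to 108 genes called. Without any 1 double-mutant library it was 4, beside 810 to 881 genes called.

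The double mutant against p53+/- asks what Tsc1 deletion adds where 1 Trp53 copy is missing. It shares its p53+/- libraries with the comparison before it. Of 19 histone genes 6 were called, all higher, where 32.4% of all genes were called in either direction and 31.9% higher. They were Hist1h1c at 3.76 (SE 1.02), Hist1h2bc at 3.18 (SE 1.04), Hist1h2bg at 2.66 (SE 0.85), Hist1h4h at 2.19 (SE 0.82), Hist2h3c1 at 2.06 (SE 0.56) and Hist1h2bf at 1.32 (SE 0.40), with limma adjusted p from 0.0179 to 0.0495. The histone share was near that of all genes, and the median log2 difference was 1.17 against 1.38 over all genes. With nuclear rescaling limma called 0 of 21, against 4.74% of all genes, and 4 had an unadjusted p under 0.05, against 23% of all genes. Hist1h1c then gave 1.91 (SE 0.65) with a limma adjusted p of 0.119 and stayed apart from all p53+/- libraries. With rescaling 3 of 21 members, Hist1h1c among them, lay apart and higher, against 2091 of 12590 genes. Lower and apart lay 1 member, against 1392 genes. As deposited 10 of 19 members lay apart and higher, against 4966 of 12014 genes. The count of called members moved to 17 without p53+/- library 3, where 11037 of all 11618 genes tested were called. It moved to 3 without Tsc1-deleted library 1, where 2252 of 11901 genes were called. Without p53+/- library 1 or 2 it was 0, beside 790 of 12000 and 865 of 11991 genes called. Without any 1 double-mutant library it was also 0, beside 310 to 889 genes called.

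The library with the highest markers of cell division did not have the highest summed histone level. The summed level of 38 S phase and proliferation genes was 379 FPKM in p53+/- library 3, against 38.6 to 121 FPKM in the Tsc1-deleted and 79.9 to 119 FPKM in the double-mutant libraries. Mki67, a marker of cycling cells, stood there at 19.0 FPKM against at most 3.04 FPKM elsewhere, and Top2a, the topoisomerase of dividing cells, at 15.4 against at most 2.01 FPKM. Pcna, the replication clamp, stood at 36.4 FPKM against at most 23.2 FPKM. The histone sum of that library was 199 FPKM, below all 6 libraries with Tsc1 deletion as deposited, but 265 FPKM and above 3 of those 6 after nuclear rescaling. Without the 6 highest members its histone sum was 50.5 FPKM as deposited and 67.4 FPKM after rescaling. Only Tsc1-deleted library 3 was then higher, at 78.2 and 74.9 FPKM, with at most 43.25 and 41.97 FPKM elsewhere. P53+/- library 3 held the highest value of 14 members as deposited and of 16 after rescaling. Tsc1-deleted library 3, with 121 FPKM for the S phase list, held the highest value of 33 members as deposited and of 27 after rescaling. These counts run over all 67 members, including the 32 under 10 estimated reads in every library, and were not set against all genes.

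**Figure D4:**
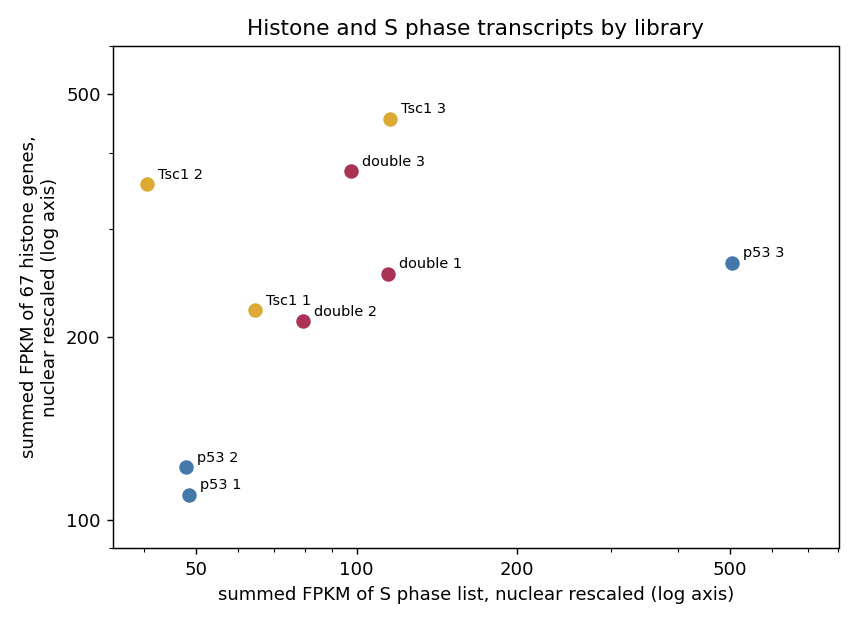
Summed FPKM of the 67 histone genes against that of the 38 S phase and proliferation genes, both after nuclear rescaling and on log axes, 1 point per library coloured by genotype as in the other plots. P53+/- library 3 lies far to the right at a histone sum of 265 FPKM, while Tsc1-deleted library 2, with the lowest S phase sum, reaches 356 FPKM. Without the 6 highest members the same libraries sum to 67.4 and 35.5 FPKM (not drawn).

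Few of the genes that serve histone messages and proteins were called, also in the double mutant against p53+/-, where 32.4% of all genes were. Slbp stood at 0.24, 0.10 and 4.38 FPKM in p53+/-, 1.25, 1.57 and 1.77 FPKM in Tsc1-deleted and 1.28, 2.61 and 2.76 FPKM in double-mutant libraries, and was called in none of the comparisons. Npat, the coactivator of histone gene transcription, reached 1.49 FPKM in p53+/- library 3 and was called in none. Of 18 tested genes for histone mRNA synthesis and processing, 1 was called, Snrpb, a core protein of small nuclear ribonucleoproteins, higher in the double mutant than in p53+/- at 2.70 (SE 0.90, limma adjusted p 0.0355). Of 17 histone chaperones 2 were called in that comparison, Ssrp1, a subunit of FACT, at 2.81 (SE 0.82) and Spty2d1 at 1.30 (SE 0.48). No gene of either list was called in the other comparisons or after nuclear rescaling.

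The replication-independent histones, which are made outside S phase, gave 1 call among 10 tested genes, H2afz (H2A.Z), higher in the double mutant than in p53+/- at 2.86 (SE 0.91, limma adjusted p 0.0304), where 32.4% of all genes were called. After nuclear rescaling the limma adjusted p of H2afz was 0.251, none of 11 was called, and the median log2 difference of the list turned from 1.31 to -0.53. H3f3b, an H3.3 gene, stood at 2.19, 1.99 and 125 FPKM in p53+/-, 38.1, 31.8 and 63.6 FPKM in Tsc1-deleted and 79.0, 49.4 and 52.0 FPKM in double-mutant libraries, and H3f3a reached 38.8 FPKM in p53+/- library 3. H1f0, the linker histone of resting cells, also had its highest value there, 93.7 FPKM against 21.9 FPKM for Hist1h1c. In the double mutants H1f0 was at 70.6, 32.8 and 44.1 FPKM, below Hist1h1c in 2 of 3 libraries. Of 32 tested S phase genes, Ccne1 (cyclin E1) was the 1 called, at 1.67 (SE 0.49) in the double mutant against p53+/-, again beside 32.4% of all genes. With nuclear rescaling its limma adjusted p was 0.132, none of 32 was called, and the list's median log2 difference turned from 0.52 to -0.24.

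Head-to-head gene pairs were listed at uneven levels. In 12 pairs an H2B and an H2A gene start within 400 bases of each other on opposite strands, and in all 12 the H2B gene had the higher median FPKM. Hist1h2bc had a median of 115 FPKM and its partner Hist1h2ac 0.292 FPKM, with starts 251 bases apart. Hist1h2bg had 17.2 FPKM and Hist1h2ae 0.377 FPKM, and Hist1h2bk had 4.62 FPKM and Hist1h2ah 0.25 FPKM. In 8 of the pairs the H2B value was the higher in all 9 libraries. Many of the H2A partners lay near the floor. Hist1h2ad, Hist1h2ag, Hist1h2ah, Hist1h2ai, Hist1h2ak, Hist1h2an, Hist1h2ao and Hist1h2ap reached at most 7.3 estimated reads in any library, and Hist1h2bp 2.6. The pair counts thus include members under 10 reads, too low to compare one by one. The H2A genes share a median of 73.0% of their words with other genes and the H2B genes 46.9%, and the part of ambiguous reads in this gap was not tested.

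**Figure D5:**
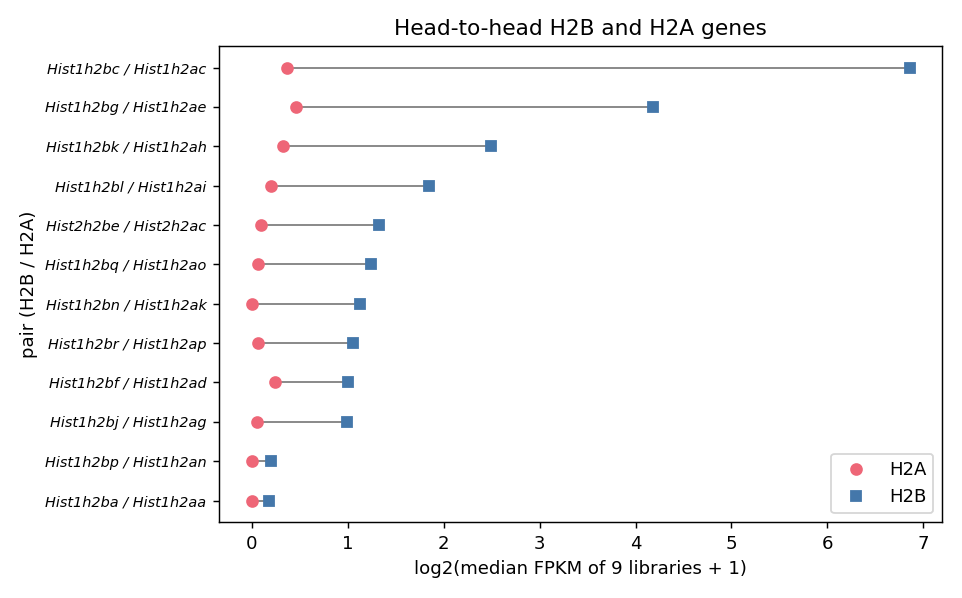
Median over 9 libraries as log2(FPKM + 1) for the H2B (square) and the H2A gene (circle) of 12 head-to-head pairs. The H2B gene lies to the right in every pair, from 115 against 0.292 FPKM for Hist1h2bc and Hist1h2ac down to 0.135 FPKM against a listed 0 for Hist1h2ba and Hist1h2aa.

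Promoters of Hist1h2bg, Hist1h1c and Hist2h2aa1 are shown because they stand for a shared H2A and H2B promoter, a linker histone promoter and the gene with the sharpest pattern. The sequences are RefSeq's on GRCm38.p6, from 250 bases before the start to 50 after it, at chr13:23571150-23571449 (plus strand), chr13:23738557-23738856 (plus strand) and chr3:96245247-96245546 (plus strand). Capitals mark matches on either strand to the CCAAT box, the TATA box searched as TATAAA, the octamer searched as ATTTGCAT and the H1 box searched as AAACACA.
Hist1h2bg: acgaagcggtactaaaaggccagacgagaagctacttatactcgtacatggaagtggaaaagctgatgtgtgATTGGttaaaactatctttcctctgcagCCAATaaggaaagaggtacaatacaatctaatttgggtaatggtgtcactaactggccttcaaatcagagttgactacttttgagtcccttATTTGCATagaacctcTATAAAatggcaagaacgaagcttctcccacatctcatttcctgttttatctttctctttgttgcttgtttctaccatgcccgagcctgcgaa
Hist1h1c: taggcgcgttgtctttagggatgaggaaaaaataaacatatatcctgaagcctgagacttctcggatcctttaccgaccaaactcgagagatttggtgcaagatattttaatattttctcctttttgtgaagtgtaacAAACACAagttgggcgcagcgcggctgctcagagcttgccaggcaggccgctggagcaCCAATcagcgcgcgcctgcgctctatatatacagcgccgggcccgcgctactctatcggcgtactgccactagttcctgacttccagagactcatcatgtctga
Hist2h2aa1: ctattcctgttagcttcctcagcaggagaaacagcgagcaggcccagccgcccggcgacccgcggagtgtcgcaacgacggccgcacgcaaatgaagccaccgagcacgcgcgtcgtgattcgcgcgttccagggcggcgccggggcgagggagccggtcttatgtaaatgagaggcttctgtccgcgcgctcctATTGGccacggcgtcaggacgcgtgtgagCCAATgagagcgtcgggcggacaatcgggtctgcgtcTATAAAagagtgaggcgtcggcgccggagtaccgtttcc
The Hist1h2bg window also holds the start of Hist1h2ae, read on the other strand, so it covers sequence near both starts. Which of its CCAAT, octamer and TATA matches serve which gene was not tested. RefSeq promoters were matched for 62 of the 67 members. CCAAT was found in 53 (37.4% of all promoters in the table), including all 18 H2A, all 16 H2B and all 10 H3 promoters but 3 of 12 for H4. TATAAA was found in 35 (13.6% of all), the octamer in 13 (1.7% of all), of which 7 belong to H2A and 6 to H2B genes, and the H1 box in 9 (7.2% of all), of which 5 belong to the 6 H1 genes. No motif contains another, and a match does not show that a factor binds.

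The annotated messages end at different places. In 23 members the model runs more than 100 bases past the stem-loop, in 23 it ends within that distance and in 21 it has no match. The median of the members' median FPKM was 0.31, 0.104 and 0.134 in these sets, of which 6, 7 and 6 members passed the filter. A poly(A) signal (AATAAA or ATTAAA in the last 60 bases) stood in 16 models, with a median of 0.55 FPKM, and was missing in 51, with a median of 0.105 FPKM. Hist1h1c, with 840 bases past its stem-loop and a poly(A) signal, is among the highest members, while Hist1h2bk, which is in the top 6 too, ends 30 bases after its stem-loop. Model length enters FPKM, so these levels depend on where each model ends.

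Shared sequence limits what single values can say. The median member shares 54.1% of its words with another gene on either strand, 34 members share more than 50%, and 4 share none, among them Hist1h1a and Hist2h2be. H1 genes share a median of 1.15%, H3 genes 62.0% and H4 genes 39.5%. Same-strand models of other genes overlap 7 members, among them Hist3h2a, Hist2h3c1, Hist2h2aa1, Hist1h1e and Hist1h2ac, and opposite-strand models overlap 21.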

How the data were processed

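Mouse liver RNA was measured in 9 libraries. Per the submitters' processing notes, reads were handled with cutadapt, STAR and StringTie on the genome build mm9; versions are not given in the sources used here. Per the labels' protocols, ribosomal RNA was depleted and single reads of 50 cycles were run on 3 lanes of 4 samples; lane membership: not given in the sources used here. The deposited tables hold 1 FPKM value per gene made by the authors, a unit recognised from the numbers themselves. Of 52550 identifiers 52403 matched GENCODE release 21, which annotates a later build, so only promoter coordinates are given, with their own build.

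Depth was estimated from the FPKM step of 1 read and covers counting error only. Genes reaching 1 FPKM in 3 or more libraries were tested as log2(FPKM + 1) with limma 3.58.1 in R 4.3.3. The test used trend and robust steps, all 9 libraries in 1 fit, Benjamini-Hochberg over all genes and a threshold of 0.05. The fit was also tested on simulated data with independent noise, which lacked the differences between libraries described above and so does not bear on them. Python 3.11.15, pandas 2.3.3, numpy 2.4.6 and matplotlib 3.10.9 were used. Members and lists were chosen with earlier results of these data known. The text names the 4 highest members of each class, every called member, members at 0 in 1 group and at 1 FPKM or more in another, up to 6 same-strand overlaps, the Hist2 H2A neighbours, the testis genes and set genes of the related lists. Alternatives were a pseudocount of 0.1 or 5, no filter, a 5 FPKM filter, nuclear, median-ratio and quantile scaling, plain limma, only the 6 libraries compared, a replicate block, and left-out libraries.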

Additional observations from a re-analysis of the deposited data

How the results depend on the processing

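The count of called histone genes in the double mutant against Tsc1 deletion was 1, and it was 0 with a pseudocount of 5, no filter, nuclear, median-ratio or quantile scaling and limma without trend and robust steps. At an unadjusted p under 0.05 limma then gave 2, 2, 1, 6, 6 and 1 genes of 19, 65, 21, 17, 19 and 19. All genes gave 417 of 12014, 952 of 27774, 518 of 12590, 453 of 10618, 540 of 12014 and 215 of 12014. Leaving out each library gave 0 to 1 called, beside 0 to 6 of all genes. Against p53+/-, the double mutant count of 6 became 10 with a pseudocount of 0.1, 0 without a filter or with nuclear or quantile scaling (8, 4 and 4 at an unadjusted p), 2 with median-ratio scaling or only the 6 libraries compared, 0 with those 6 and nuclear scaling (3 at an unadjusted p), and 1 without p53+/- libraries 1 and 2. That 1 was Hist2h2aa1, lower in the double mutant than in the lone p53+/- library 3, which is assumed to vary like the other groups, so none of the 6 was called there, and median-ratio scaling shared 1 of its 2 with the 6. With a pseudocount of 0.1, 4772 of 12014 genes were called, beside 10 of 19 members. With median-ratio scaling it was 1029 of 10618 beside 2 of 17, and with the 6 libraries 1331 of 11159 beside 2 of 12. The unadjusted counts of 8 of 65, 4 of 21 and 4 of 19 stood beside 7223 of 27774, 2891 of 12590 and 3190 of 12014. With the 6 libraries and nuclear scaling, 3 of 17 stood beside 2294 of 12072. Leaving out each library gave 0 to 17 called, beside 310 to 11037 genes. For Tsc1 deletion against p53+/-, 9 became 1 without a filter, which was Hist1h3e at no more than 0.14 FPKM and none of the 9, then 0 with nuclear scaling (8 at an unadjusted p), 5 with median-ratio, 2 with quantile scaling, 0 with the 6 libraries (10 at an unadjusted p) and also with nuclear scaling (6), 1 without p53+/- libraries 1 and 2, and 5 without library 3 under nuclear scaling. Without a filter 599 of 27774 genes were called, beside 1 of 65 members. Median-ratio scaling called 390 of 10618 beside 5 of 17, and quantile scaling 100 of 12014 beside 2 of 19. Without library 3 under nuclear scaling it was 1089 of 12093 beside 5 of 20. The unadjusted counts of 8 of 21, 10 of 15 and 6 of 20 stood beside 2290 of 12590, 2565 of 10048 and 1559 of 11488. Leaving out each library gave 0 to 19 called, beside 1 to 10700 genes. The cause was not tested.

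The log2 ratio of the median summed FPKM was -0.36, 4.58 and 4.95 for the double mutant against Tsc1 deletion, the double mutant against p53+/- and Tsc1 deletion against p53+/-. It was -0.91, 0.67 and 1.58 with median-ratio scaling. With nuclear scaling the latter ratios were 1.06 and 1.54. As deposited, group means in place of medians gave 1.95 and 2.24, and medians without p53+/- libraries 1 and 2 gave 0.41 and 0.77. Leaving out each library gave -0.63 to -0.09, 1.33 to 4.86 and 1.70 to 5.21. No called gene reversed in direction; of the alternative values for called genes, 132 stayed past the threshold and 214 did not. With the replicate number as a block, 1, 9 and 10 histone genes were called, beside 35, 5974 and 2277 of all 12014 genes. Correlations of same-numbered libraries ran from -0.197 to 0.317 and those of differently numbered libraries from -0.386 to 0.407. Pairing by number was thus not detected, which does not exclude a shared batch. At 10600000 to 18200000 reads, 32 members lay too low to compare.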

Other observations

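RNAs that never carry a poly(A) tail were measured beside the histone messages. The summed level of 11 small non-polyadenylated RNAs was 65.2, 709 and 57.1 FPKM in the p53+/- libraries, 44.1, 63.0 and 26.0 FPKM in the Tsc1-deleted libraries and 41.2, 27.2 and 43.3 FPKM in the double mutants. After nuclear rescaling it was 670, 7871 and 76.2 FPKM, 43.9, 66.1 and 24.9 FPKM, and 39.6, 27.0 and 43.3 FPKM. Every p53+/- library then lay above every library with Tsc1 deletion. None of the 7 tested genes of the list was called. The library with the highest sum, p53+/- library 2, had a histone sum of 11.01 FPKM.

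Cell type lists beyond those described above also varied between libraries. The summed level of 7 erythroid markers was 1010, 1972 and 86.6 FPKM in p53+/-, 294, 451 and 162 FPKM in Tsc1-deleted and 24.4, 108 and 311 FPKM in double-mutant libraries. The 10 cholangiocyte markers summed to 15.98, 10.8 and 1974 FPKM, 572, 555 and 2788 FPKM, and 3766, 1046 and 1633 FPKM, and 7 of the 9 tested were called by limma as higher in the double mutant than in p53+/-, among them Spp1, Epcam, Cldn7 and Cdh1, where 31.9% of all genes were called higher. After nuclear rescaling 1 of those 9 was called, Cldn7 with a limma adjusted p of 0.0493. In the same comparison 15 of 17 hepatocyte markers were called higher as deposited and 0 after rescaling. The 12 endothelial markers summed to 5.92 to 55.9 FPKM, and the 15 lymphocyte and neutrophil markers to 10.98 to 114.5 FPKM, across the 9 libraries. The part of these cell types in the histone values was not tested.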
